A study of Mus musculus with 10 samples.

Results

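The genes described here are the axon guidance ligands Draxin and Ntn1 and the receptors that bind them or work beside them, Dcc, Unc5a, Unc5b, Unc5c, Unc5d, Robo1, Robo2 and Robo3. They were taken by symbol, and all 10 were found once each among the 48526 gene identifiers of the expression table and among the 17007 genes with enough reads to be tested. The tissue was dentate gyrus, home of the granule neurons in the hippocampus, from C57Bl/6 mice aged 8 weeks. The mice had received 1 µl of an adeno-associated virus of serotype 9 on either side of the brain, and the virus carried GFP for 5 of the sequenced libraries and the transcription factor Sox11 for the other 5. Both groups were therefore injected and infected, and no uninjected tissue was used here. The promoter that drove GFP or Sox11 in the virus is not given in the sources used here. RNA was taken from the whole dissected tissue and poly(A) RNA was sequenced, so fewer cells of a type and less RNA per cell cannot be told apart in any value below.

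Netrin-1, the product of Ntn1, is a secreted protein that attracts growing axons through the receptor Dcc and repels them when an Unc5 receptor takes part. Draxin is a secreted protein of another kind that binds Dcc and netrin-1, and mice without it have defects of the forebrain commissures, the one that joins the hippocampi included. Robo1 and Robo2 are receptors for the Slit repellents. Robo3 is their divergent relative, which in mammals binds Nell2 rather than Slits and is known for its part in the crossing of commissural axons at the midline.

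The libraries are named by group and number, GFP 1, 3, 4, 5 and 6 and Sox11 1, 2, 3, 6 and 7. Whether a number found in both groups marks a pair is not known, and no pairs were used. Each held between 45100154 and 68769808 reads assigned to genes. Levels are normalized counts, read counts divided by a factor for each library. Sox11 itself had 1364 to 1634 normalized counts in the GFP group and 9803 to 20434 in the Sox11 libraries (limma adjusted p = 9.18e-06, two-sided exact permutation p = 0.00794, the smallest that 5 against 5 can give), and reads of the virus and of the mouse gene were not told apart. Counts of markers that passed in one direction (limma adjusted p below 0.05) stand against 9.65% of all genes tested being higher and 9.36% lower in Sox11. Markers of mature granule neurons summed to 94137 to 131516 normalized counts in GFP and 97175 to 131959 in Sox11 libraries. Of these 14 genes 2 were higher, Rfx3 (log2 fold change 0.43) and Lct (0.29). The 5 lower ones were Gabrd (-0.51), C1ql2 (-0.41), Pdzd2 (-0.79), Plk5 (-0.39) and Sv2c (-0.45). The other 7 did not pass, Prox1 (0.20) and Calb1 (0.16) among them. Summed markers of immature neurons were higher in all 5 Sox11 libraries (92144 to 113522 normalized counts) than in the GFP libraries (50696 to 63235), with 8 of 15 genes higher and 0 lower. The remaining 7 did not pass, with Neurod1 (0.01), Sox4 (-0.17) and Gap43 (0.09) among them. Summed mossy cell markers were lower (27888 to 33953 against 34333 to 40194, 5 of 10 genes lower and 0 higher). Dkk3 was the largest part of that sum (mean 17420 in GFP and 12741 in Sox11). Calb2, Drd2, Csf2rb2, Glipr1 and Ap2s1 did not pass. Of 15 interneuron markers 5 were lower and 0 higher (46392 to 60476 against 60288 to 72299). Astrocyte markers had 4 of 12 genes higher and 0 lower, Gfap (0.46) among them (summed 317106 to 399346 against 290546 to 371233), and microglia markers had 3 of 10 higher and 0 lower, C1qb, C1qc and Tyrobp (23669 to 29041 against 23809 to 28701). Of 9 CA3 markers 1 was lower and 0 were higher, and none passed in the 6 other lists, those of CA1 neurons, oligodendrocytes and their precursors, endothelium, pericytes and fibroblasts, and choroid plexus and ependyma. GFP 3 held 384301 summed normalized counts of choroid plexus and ependyma markers, where the other 9 libraries held 884 to 3547. The part of these differences in the values of the guidance genes was not tested.

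Of the 10 members, 4 passed the test, so that the set split into genes that rose, genes that fell and a majority without a call. Draxin and Robo3 rose in the Sox11 libraries, Unc5c and Unc5d fell, and Ntn1, Dcc, Unc5a, Unc5b, Robo1 and Robo2 did not pass. Among all genes tested, 19.0% passed (limma, Benjamini-Hochberg adjusted p below 0.05), 9.65% being higher and 9.36% lower in Sox11. The 4 of 10 calls, 2 higher and 2 lower, are to be read against that background. In Draxin, Robo3 and Unc5d the groups did not overlap, and the same held for 15.9% of all genes tested. The median log2 fold change was 0.03 over the 10 members and -0.006 over all genes tested.

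**Figure D1:**
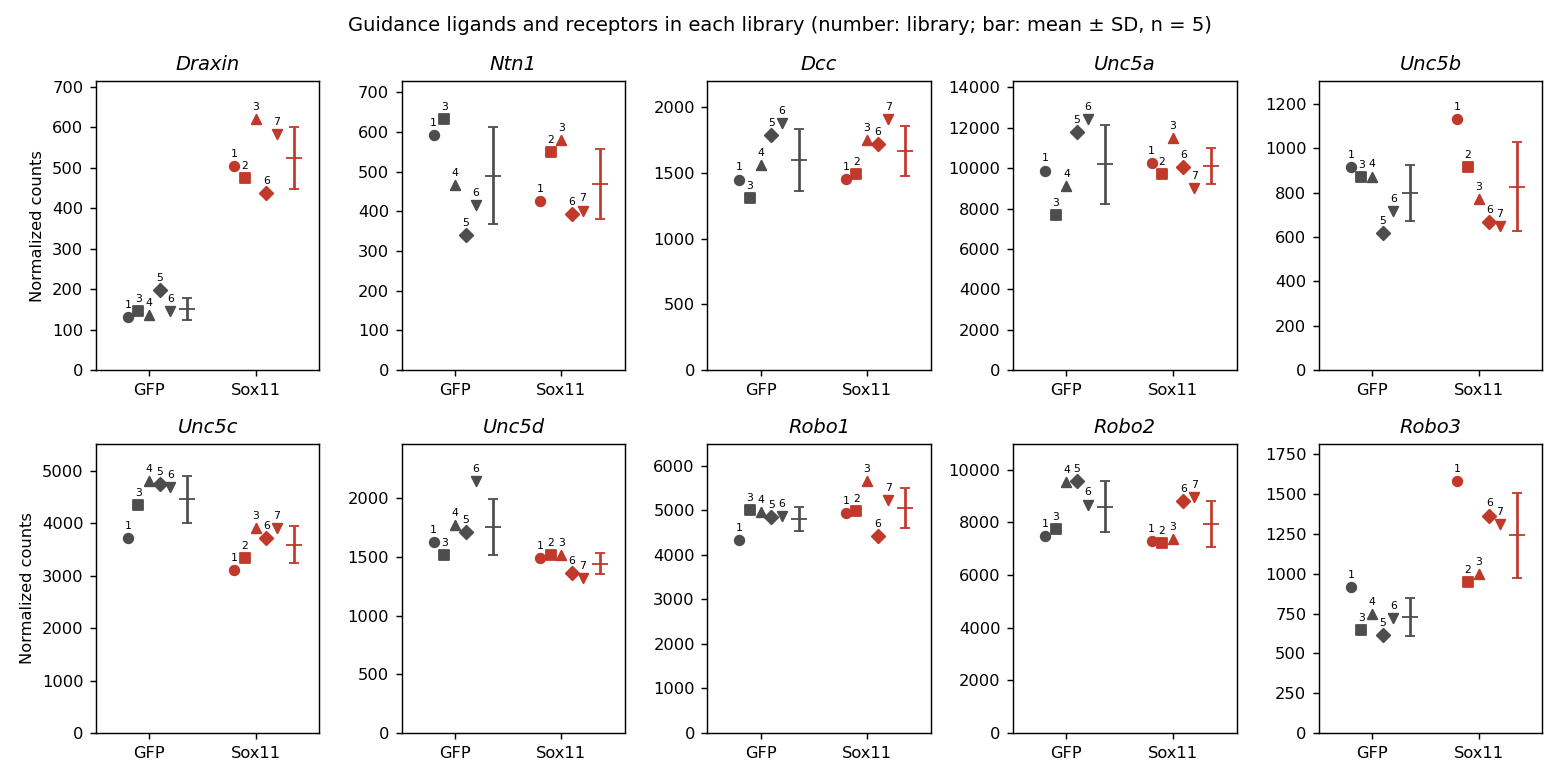
Normalized counts of each of the 10 genes (vertical axes, each from 0) in the 5 GFP libraries (grey) and the 5 Sox11 libraries (red), with the library number above each point and the mean ± SD beside the points. Draxin and Robo3 sit higher and Unc5d lower in every Sox11 library than in every GFP library, while for Unc5c 3 Sox11 libraries lie below all GFP libraries and the remaining 2 overlap them.

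Draxin showed the largest change of the 10 genes. It had 132, 145, 136, 198 and 146 normalized counts in GFP 1, 3, 4, 5 and 6 and 505, 475, 621, 438 and 584 in Sox11 1, 2, 3, 6 and 7. All 5 Sox11 libraries lay above all GFP libraries, and the lowest Sox11 value stood far above the highest GFP value, that of GFP 5. The means were 152 ± 26.7 and 525 ± 76.1 normalized counts (SD, n = 5 each), a 3.45-fold difference. The log2 fold change was 1.79 with an SE of 0.13 (limma adjusted p = 1.43e-05). Each value rested on 124 to 817 reads. The library with the most Sox11 transcript, Sox11 3, also had the most Draxin. The same library had the most Ntn1, Unc5a, Unc5c and Robo1 of the Sox11 group. For Robo3 it had 998 normalized counts, where Sox11 1 had 1580. Whether Draxin followed the Sox11 level was not tested. The Draxin gene (ENSMUSG00000029005) lies on the minus strand of chromosome 4 (GRCm38, chr4:148098437-148130698). It is annotated with 1 transcript of 5200 bases, which no other gene's exons overlap.

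The sequences next to the starts of Draxin and Robo3, the members that rose, are shown because proteins of the Sox family bind short A-rich words such as ACAAAG and ACAATG. They come from RefSeq on GRCm38.p6 and hold only bases in front of the annotated gene, read 5′ to 3′ on the strand of the gene, with matches to either word on either strand in capitals. The Draxin stretch is chr4:148130699-148130948, minus strand, the 250 bases before the start. The Robo3 stretch is chr9:37433247-37433425, minus strand, the 179 bases of its window that lie outside the annotated gene.
Draxin: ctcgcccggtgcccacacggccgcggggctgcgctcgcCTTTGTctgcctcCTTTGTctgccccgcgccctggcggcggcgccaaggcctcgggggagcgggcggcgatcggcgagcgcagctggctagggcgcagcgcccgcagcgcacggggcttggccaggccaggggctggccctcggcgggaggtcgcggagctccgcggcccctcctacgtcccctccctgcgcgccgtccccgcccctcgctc
Robo3: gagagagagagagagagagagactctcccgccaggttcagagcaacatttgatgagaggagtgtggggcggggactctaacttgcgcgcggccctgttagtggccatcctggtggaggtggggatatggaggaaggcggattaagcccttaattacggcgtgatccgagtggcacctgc
The Draxin stretch held ACAAAG 2 times, both on the opposite strand and so read as CTTTGT, beginning 212 and 199 bases before the start. ACAATG was not in it. In the Robo3 stretch neither word was present. Each word was counted alone, overlaps allowed. Of the 250-base windows before 32851 RefSeq starts, 16.5% held ACAAAG, 10.7% held ACAATG and 25.2% held either. RefSeq windows were matched for 7 members (9 windows), and among them Draxin was the 1 gene with a match. The windows of Unc5c and Robo1 lay wholly inside the annotated genes. Such matches describe the letters and are not binding sites measured here. The Draxin stretch was 79.6% G and C, where the median over all windows was 52.4%, and the Robo3 stretch was 58.1%.

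Ntn1, the other ligand, had 591, 633, 467, 340 and 417 normalized counts in the GFP group and 425, 549, 580, 393 and 402 in the Sox11 libraries, in the same order of library numbers. The groups overlapped almost entirely. The means were 490 ± 122 and 470 ± 87.6 (SD, n = 5 each), and the log2 fold change of -0.04 was smaller than its SE of 0.18 (limma adjusted p = 0.912). Within both groups the values formed a higher and a lower band: GFP 1, GFP 3, Sox11 2 and Sox11 3 had 549 to 633 normalized counts and the other 6 libraries 340 to 467. The same 4 libraries had the highest summed markers of pericytes and fibroblasts, 18801 to 27652 against 8001 to 13569. This coincidence was noticed after the values were seen, and its part in the Ntn1 values was not tested.

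Draxin and netrin-1 can be set against each other within each library, since a ratio needs no scaling between libraries. Per kilobase of exon, the log2 ratio of Draxin to Ntn1 was -1.89, -1.85, -1.51, -0.505 and -1.24 in the GFP libraries and 0.52, 0.0643, 0.372, 0.428 and 0.81 in the Sox11 libraries. By this length Ntn1 was the higher of the pair in all 5 GFP libraries and Draxin in all 5 Sox11 libraries. In Sox11 2, with 475 counts of Draxin and 549 of Ntn1, the order depends on the length used. Draxin is higher there with all exon bases of Ntn1 (6277) and Ntn1 is higher with its longest transcript (5874). The difference between the group means was 1.84 with either length. The mean log2 ratio was -1.40 ± 0.566 in GFP and 0.439 ± 0.269 in Sox11 (SD, n = 5 each), a difference of 1.84. The two-sided exact permutation p was 0.00794, or 0.0238 after Benjamini-Hochberg adjustment over the 3 ratios and shares tested here. The ratio uses the Draxin counts already given and is not separate evidence that Draxin rose.

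Dcc, the receptor that both ligands bind, had 1450, 1312, 1563, 1792 and 1880 normalized counts in the GFP group and 1454, 1494, 1751, 1721 and 1912 in the Sox11 libraries. The groups overlapped over nearly their whole range. The means were 1599 ± 236 and 1666 ± 191 (SD, n = 5 each), with a log2 fold change of 0.06 (SE 0.11, limma adjusted p = 0.757). Its identifier is ENSMUSG00000060534.

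Of the 4 Unc5 receptors, Unc5c and Unc5d fell and Unc5a and Unc5b did not pass. Unc5c, which carries netrin-driven repulsion in cerebellar and spinal axons, had 3729, 4348, 4800, 4745 and 4692 normalized counts in the GFP group and 3106, 3336, 3917, 3717 and 3906 in the Sox11 libraries. Sox11 1, 2 and 6 lay below every GFP library, and Sox11 3 and 7 lay above GFP 1 alone. The means were 4463 ± 446 and 3597 ± 361 (SD, n = 5 each), a ratio of 0.81, and the log2 fold change was -0.31 (SE 0.09, limma adjusted p = 0.026). The call was lost in 5 of the 10 fits that left out 1 library, namely those without GFP 4, GFP 5, GFP 6, Sox11 1 or Sox11 2, with adjusted p between 0.00775 and 0.0658 over the 10 fits. The gene (ENSMUSG00000059921) is at chr3:141465216-141834924 on the plus strand (GRCm38).

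Unc5d is the Unc5 receptor best known as a partner of the FLRT proteins in neuron migration. It had 1626, 1516, 1772, 1712 and 2143 normalized counts in the GFP group and 1490, 1515, 1513, 1366 and 1322 in the Sox11 libraries. Every Sox11 library was below every GFP library, but Sox11 2 and GFP 3 differed by about 1 normalized count, so the gap between the groups was nearly nil. The means were 1754 ± 238 and 1441 ± 90.7 (SD, n = 5 each). The log2 fold change was -0.28 (SE 0.09), a ratio of 0.83 on that scale, and the limma adjusted p of 0.0429 was close to the threshold. When each library was left out in turn the call held in 2 of 10 fits, those without GFP 1 (adjusted p = 0.0497) and without GFP 3 (0.0177), and it was lost without GFP 4, 5 or 6 or any 1 of the 5 Sox11 libraries. The gene (ENSMUSG00000063626) is at chr8:28646717-29219636 on the minus strand (GRCm38).

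Unc5a was by far the most abundant of the receptors and did not pass the test. It had 9883, 7687, 9121, 11766 and 12444 normalized counts in the GFP group and 10266, 9713, 11497, 10059 and 9001 in the Sox11 libraries. All 5 Sox11 values fell inside the GFP range. The means were 10180 ± 1941 and 10107 ± 914 (SD, n = 5 each), with a log2 fold change of 0.01 (SE 0.12, limma adjusted p = 0.983).

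Unc5b, the Unc5 receptor known from blood vessel endothelium, had 913, 871, 872, 616 and 716 normalized counts in the GFP group and 1132, 914, 770, 666 and 651 in the Sox11 libraries. The groups overlapped, with Sox11 1 the highest and GFP 5 the lowest of the 10. The means were 798 ± 126 and 827 ± 201 (SD, n = 5 each), and the log2 fold change was 0.04 (SE 0.16, limma adjusted p = 0.921). Summed endothelial markers spanned 9278 to 18205 normalized counts in GFP and 10773 to 15328 in Sox11 libraries. Of the 4 libraries highest in Unc5b, 3 were among the 4 highest in these markers. Their marker range did not stand apart, with 11497 to 15328 in those 4 libraries and 9278 to 18205 in the other 6. Sox11 1, the highest in Unc5b, had the 11497, and GFP 3, the highest in the markers, had 871 counts of Unc5b. The part of vessel content in the Unc5b values was not tested.

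The makeup of the Unc5 family was compared from levels per kilobase of exon. Unc5c and Unc5d together made up 12.9, 16.5, 16.0, 12.9 and 13.4% of the summed level of the 4 genes in the GFP libraries and 10.9, 12.0, 11.3, 12.0 and 13.3% in the Sox11 libraries. Most Sox11 shares were lower, and Sox11 7 overlapped the GFP group. The means were 14.3 ± 1.77% and 11.9 ± 0.906% (SD, n = 5 each), a difference of -2.41 percentage points (two-sided exact permutation p = 0.0238, adjusted over the 3 ratios and shares 0.0238). The share uses the Unc5 counts already given and is not separate evidence that Unc5c or Unc5d fell. It groups the genes of the family that passed, so its p is not an independent test. Unc5a alone made up 81.3% of the family's level in GFP and 83.5% in Sox11, so the size of the share rests mainly on that gene. The counts of Unc5a did not pass between the groups (log2 fold change 0.01), while those of Unc5c (-0.31) and Unc5d (-0.28) did. With the longest transcript as the length the share differed by -3.2 percentage points (exact permutation, adjusted p = 0.0317).

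Among the Robo receptors Robo3 rose and the abundant Slit receptors did not pass. Robo3 had 918, 644, 748, 617 and 722 normalized counts in the GFP group and 1580, 949, 998, 1366 and 1312 in the Sox11 libraries. The groups did not overlap, although Sox11 2 stood only a little above GFP 1, and Sox11 1 and GFP 1 were the highest of their groups. The means were 730 ± 118 and 1241 ± 265 (SD, n = 5 each). The log2 fold change was 0.75 with an SE of 0.15 (limma adjusted p = 0.00637), a 1.68-fold difference on that scale. The gene (ENSMUSG00000032128) is at chr9:37415669-37433246 on the minus strand (GRCm38).

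Robo1 had 4328, 5010, 4953, 4850 and 4865 normalized counts in the GFP group and 4944, 4980, 5650, 4430 and 5239 in the Sox11 libraries. GFP 1 was the lowest and Sox11 3 the highest, and the groups overlapped. The means were 4801 ± 272 and 5048 ± 446 (SD, n = 5 each), with a log2 fold change of 0.07 (SE 0.07, limma adjusted p = 0.528).

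Robo2 had 7491, 7728, 9523, 9553 and 8677 normalized counts in the GFP group and 7272, 7231, 7358, 8804 and 8970 in the Sox11 libraries. The values formed a lower and a higher band that both groups shared: libraries numbered 1 to 3 had 7231 to 7728 and those numbered 4 to 7 had 8677 to 9553. The means were 8595 ± 969 and 7927 ± 879 (SD, n = 5 each), with a log2 fold change of -0.12 (SE 0.09, limma adjusted p = 0.432). Within libraries 1 to 3 the means were 7610 in GFP and 7287 in Sox11, and within libraries 4 to 7 they were 9251 and 8887. What the numbers stand for is not given in the sources used here, and no label sets a cut between 3 and 4. The division is therefore a choice made here. A p-value of Robo2 for the division comes from the same values that show the bands, so it is not separate evidence of them. Dcc was likewise higher in libraries 4 to 7, with means of 1381 and 1745 in GFP and 1566 and 1817 in Sox11. Ntn1 went the other way, with 612 and 408 in GFP and 518 and 398 in Sox11, as did Unc5b, with 892 and 735 in GFP and 939 and 658 in Sox11. Unc5c had higher means in libraries 4 to 7, with 4039 and 4746 in GFP and 3453 and 3812 in Sox11. In limma with this division as covariate, the division passed for Robo2 (adjusted p = 0.00643), Ntn1 (0.0254) and Dcc (0.0388). It did not pass for Unc5b (0.0557), Unc5c (0.0825), Unc5a (0.643), Unc5d (0.792), Draxin (0.808), Robo1 (0.892) or Robo3 (0.9). The share of all genes tested that passed for the division is not given here, so these calls cannot be read as particular to the members. With the division as covariate, the group difference of Unc5c was -0.27 (limma adjusted p = 0.013).

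For the called genes the same division gave the following. Draxin rose within libraries 1 to 3 (log2 fold change 1.93, limma adjusted p = 0.0163) and within libraries 4 to 7 (1.67, adjusted p = 0.0014). Robo3 rose within libraries 4 to 7 (0.95, adjusted p = 0.000865) and had a log2 fold change of 0.57 within libraries 1 to 3, which did not pass (adjusted p = 0.255). Unc5c fell within libraries 4 to 7 (-0.32, adjusted p = 0.0085) and had -0.23 within libraries 1 to 3, which did not pass (adjusted p = 0.269). Unc5d had -0.06 within libraries 1 to 3 (adjusted p = 0.531) and -0.47 within libraries 4 to 7 (adjusted p = 0.0149), and whether the effect differed between the divisions was not tested. Each division compares 2 libraries of one group with 3 of the other.

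**Figure D2:**
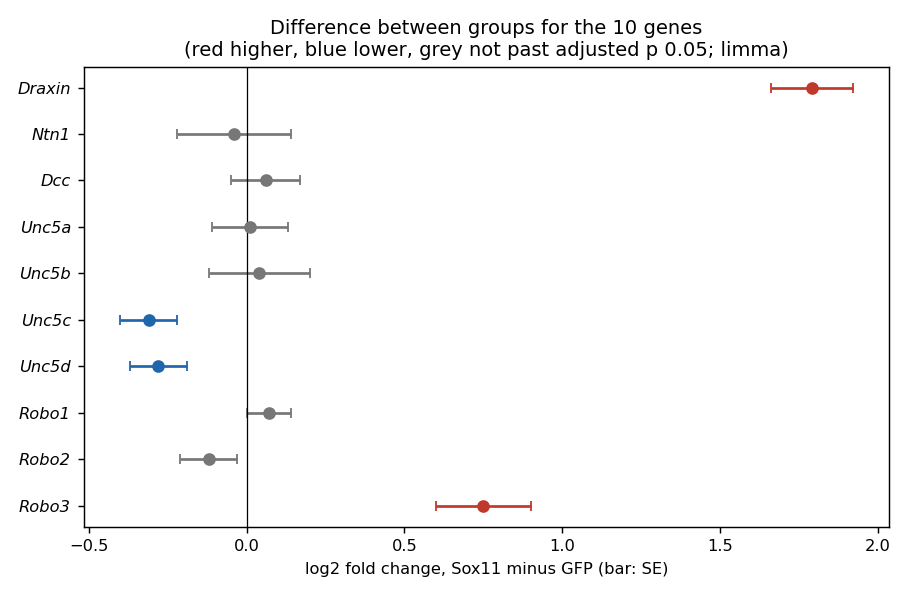
Log2 fold change, Sox11 minus GFP (horizontal axis), of the 10 genes with the SE of each as bars, from limma on all 10 libraries. Draxin at 1.79 and Robo3 at 0.75 are higher (red), Unc5c at -0.31 and Unc5d at -0.28 are lower (blue), and the other 6 lie between -0.12 and 0.07 (grey).

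Robo3 also took a larger part of the Robo family. Of the summed level of Robo1, Robo2 and Robo3 per kilobase of exon it made up 16.0% in GFP 1 and 9.52 to 11.6% in GFP 3, 4, 5 and 6, and 24.1, 16.0, 15.8, 20.2 and 18.5% in Sox11 1, 2, 3, 6 and 7. All Sox11 libraries lay above GFP 3, 4, 5 and 6, and GFP 1 overlapped the Sox11 group. The means were 11.9 ± 2.44% and 18.9 ± 3.41% (SD, n = 5 each), a difference of 7.04 percentage points (two-sided exact permutation p = 0.0238, adjusted over the 3 ratios and shares 0.0238). Robo2 made up 55.9% of the family in GFP and 48.9% in Sox11, and Robo1 32.2% in both. With the longest transcript as the length, the Robo3 share differed by 5.2 percentage points (exact permutation, adjusted p = 0.0317). The share again uses the counts given above. Robo3 is the gene of the family that passed, so the p of its share is not an independent test.

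Levels of different genes were compared only per kilobase of annotated exon. In the GFP libraries the order of mean normalized counts per kilobase was Unc5a (2442 ± 466), Robo2 (506 ± 57.1), Robo1 (291 ± 16.5), Unc5c (233 ± 23.3), Unc5d (190 ± 25.8), Unc5b (127 ± 20.2), Dcc (121 ± 17.9), Robo3 (107 ± 17.3), Ntn1 (78.0 ± 19.4) and Draxin (29.2 ± 5.13, SD, n = 5 each). The ranges over the 5 libraries overlapped between Unc5c and Unc5d, between Unc5b and Dcc, between Dcc and Robo3 and between Robo3 and Ntn1, so the order within these pairs is not beyond the spread. Draxin, at 25.5 to 38.1, lay below all the others. In the Sox11 libraries Draxin reached 101 ± 14.6 and came to stand above Ntn1 (74.8 ± 14.0), with overlapping ranges, and Robo3 reached 181 ± 38.6, beside Unc5c (188 ± 18.9) and Unc5d (156 ± 9.83). Unc5a kept the top place at 2425 ± 219. With the length of the longest transcript in place of all exons, 7 of the 10 genes kept their place in the GFP order and Dcc, Robo3 and Unc5b changed places. Unc5c, Robo1 and Robo2 have many more annotated exon bases (19135, 16511 and 16983) than their longest transcripts (9646, 7563 and 8591), which makes their values per kilobase the least certain.

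**Figure D3:**
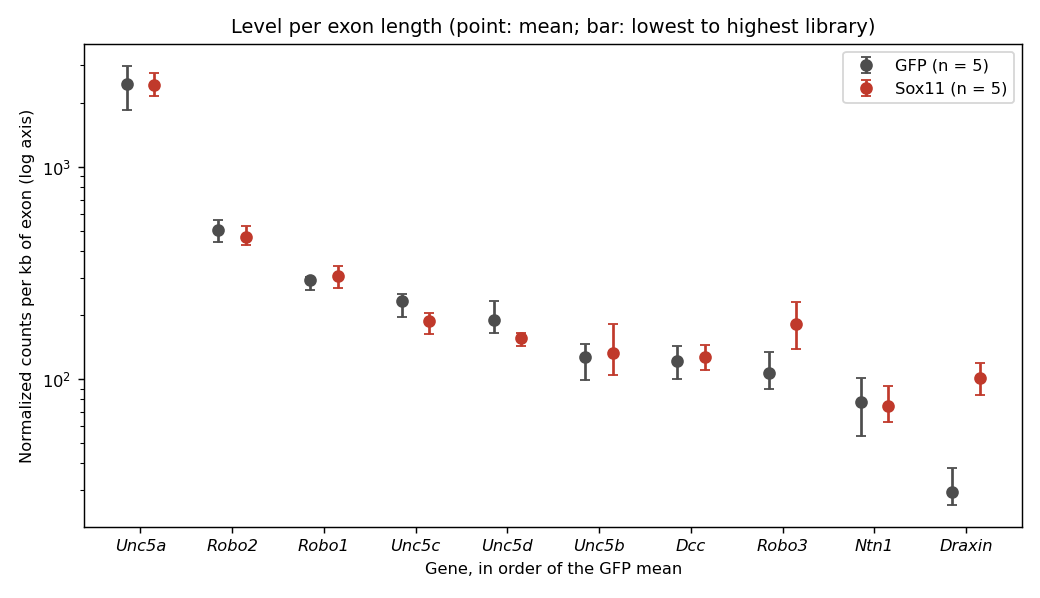
Mean normalized counts per kilobase of exon (vertical log axis) of the 10 genes, ordered by the GFP mean, with bars from the lowest to the highest of the 5 libraries of each group. Unc5a stands alone at the top, Draxin alone at the bottom in GFP (29.2), and Draxin in Sox11 (101) reaches the range of Ntn1 and Dcc.

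The other genes of the pathway were read from lists of ligands, co-receptors and effectors. Of the other netrins and RGM proteins, 6 of 8 listed genes were analysed here, and 1 rose and 0 fell (median log2 fold change -0.05), where 9.65% of all genes tested rose and 9.36% fell. The one that rose was Ntng2, a membrane-anchored netrin-G that binds a leucine-rich repeat ligand and not Dcc, with 1706 ± 337 normalized counts in GFP and 2420 ± 375 in Sox11 (log2 fold change 0.52, SE 0.14, limma adjusted p = 0.029). The highest GFP library reached 2094 and the lowest Sox11 library 2194. It lost the call without GFP 4 (0.0714), Sox11 2 (0.0502) or Sox11 3 (0.0579), and within libraries 1 to 3 (0.0884) or 4 to 7 (0.228). Of its exon bases, 13.98% are shared with 6530402F18Rik on the same strand, so its reads may be split between the genes. Its relative Ntng1 had 2216 ± 427 and 1608 ± 280 (log2 fold change -0.46, adjusted p = 0.0556) and Ntn5 had 556 ± 240 and 296 ± 75.4 (-0.83, adjusted p = 0.0925), and neither passed. Under other settings Ntng1 passed in 5 of 24: without GFP 4 (adjusted p = 0.0345) or Sox11 2 (0.0479), with DESeq2 (0.0135), with sample weights (0.0496) and with a mean of at least 50 (0.0492). Ntn5 passed in 3 of 24: without GFP 3 (0.0343), with DESeq2 (0.0125) and with sample weights (0.0278). Exons of Sec1 on the other strand cover 23.42% of the exon bases of Ntn5, and 79.5% of its 31-base words are unique to it, so its reads are uncertain.

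None of the 5 other netrin receptors and co-receptors passed (median 0.01). Dscam, which binds netrin-1 and works with Dcc, was the nearest, with 5398 ± 521 normalized counts in GFP and 6452 ± 659 in Sox11 (log2 fold change 0.26, SE 0.08, limma adjusted p = 0.0518). It passed in 3 of the 10 fits that left out 1 library, with adjusted p between 0.0212 and 0.122, and in 7 of the 14 other settings (0.0141 to 0.165). Those were the division of library numbers as covariate (log2 fold change 0.29, adjusted p = 0.0141), quantile normalization (0.016), DESeq2 (0.0174), edgeR (0.0464), TMM scaling (0.0466), a mean of at least 50 (0.0462) and libraries 4 to 7 alone (0.0452). Mcam (-0.26, adjusted p = 0.585) and Dscaml1 (0.06, 0.704) were farther away.

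Of the 6 Slit, Nell and remaining Robo genes, 0 rose and 1 fell (median 0.03), a share to be read against the 9.36% of all genes tested that fell. Nell1, a secreted relative of the Robo3 ligand Nell2, fell from 2857 ± 189 to 2213 ± 325 normalized counts (log2 fold change -0.38, SE 0.09, limma adjusted p = 0.015), and kept the call in all 10 fits that left out 1 library but not in libraries 1 to 3 alone (adjusted p = 0.158). Nell2 itself was abundant, with 50072 ± 4677 in GFP and 53536 ± 2845 in Sox11, and did not pass (0.10, adjusted p = 0.374). Slit2 had a log2 fold change of -0.21 (adjusted p = 0.189). None of the 6 FLRT and latrophilin partners of Unc5 receptors passed (median 0.00): Flrt1 had -0.23 (adjusted p = 0.203), Flrt2 -0.14 (0.496) and Flrt3 0.09 (0.497).

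Among 32 intracellular effectors of Dcc and Robo receptors, 4 rose and 1 fell (median 0.01), against 9.65% and 9.36% of all genes tested. Evl, an Ena/VASP protein that elongates actin filaments, rose from 4725 ± 278 to 6935 ± 148 normalized counts (log2 fold change 0.56, SE 0.05, limma adjusted p = 2.85e-05). Its Sox11 libraries (6785 to 7140) all lay above its GFP libraries (4350 to 5021). Fyn, a Src family kinase that acts below Dcc, rose from 8631 ± 533 to 10644 ± 613 (0.30, SE 0.06, adjusted p = 0.00367). Trim67, a ubiquitin ligase that binds Dcc, rose from 291 ± 15.6 to 368 ± 34.2 (0.34, SE 0.08, adjusted p = 0.0141). Arhgef7, an exchange factor for Rac and Cdc42, rose from 8013 ± 683 to 9616 ± 570 (0.27, SE 0.07, adjusted p = 0.0157). Sos1, an exchange factor recruited to Robo receptors, fell from 3972 ± 269 to 3406 ± 166 (-0.22, SE 0.05, adjusted p = 0.0155). These 5 genes kept their calls in all 10 fits that left out 1 library. In the smaller fits on libraries 1 to 3 and on libraries 4 to 7, Evl and Fyn passed in both, Trim67 (0.136 and 0.143) and Sos1 (0.0753 and 0.0857) in neither, and Arhgef7 missed in libraries 1 to 3 (0.0518).

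**Figure D4:**
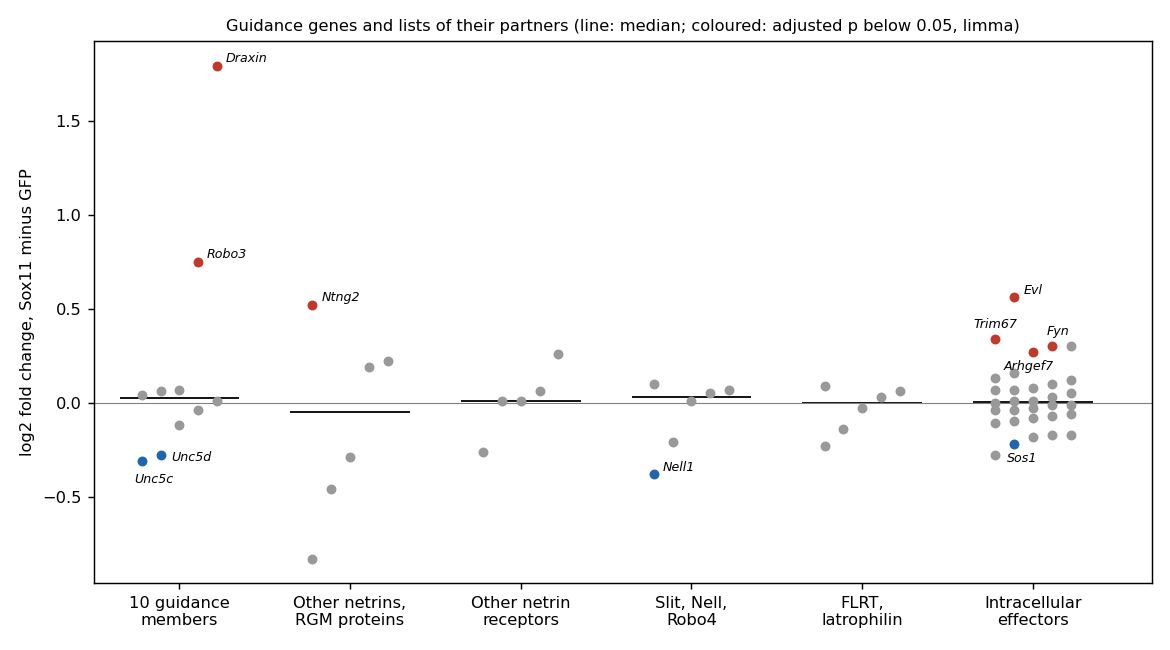
Log2 fold change, Sox11 minus GFP (vertical axis), of the 10 guidance genes and of 5 lists of related genes, 1 point per gene, with the median of each list as a line and genes past an adjusted p of 0.05 coloured (red higher, blue lower). The medians lie between -0.05 and 0.03, and Draxin (1.79) and Robo3 (0.75) stand above every other gene shown.

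The genes whose profile over the 10 libraries was closest to that of a called member were found among 14255 genes, by the root mean square difference of log2 values after centring each gene on its own mean. For Draxin they were Marcksl1 (difference 0.167, log2 fold change 1.66), Traf4 (0.193, 1.54) and Igsf9 (0.197, 1.73). For Robo3 they were Fam227a (0.187, log2 fold change 0.69), Gdf11 (0.188, 0.62) and Rnd1 (0.202, 0.80). For Unc5c they were Rims1 (0.055, log2 fold change -0.28), Dmxl2 (0.065, -0.29) and Stim2 (0.069, -0.36). For Unc5d they were Grk3 (0.049, log2 fold change -0.27), Zdhhc14 (0.061, -0.30) and Syngr1 (0.065, -0.29). The differences were smaller for the neighbours of Unc5c and Unc5d than for those of Draxin and Robo3. The measure was not scaled to each gene's own spread, so genes that vary little can have small differences. All share the same libraries and group difference, so the closeness is a description with no test.

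The calls of the 4 genes differed in how they held under other settings. Draxin passed in all 24 alternatives, with log2 fold changes between 1.67 and 1.93. Robo3 passed in all but the fit on libraries 1 to 3, and leaving out 1 library gave 0.66 to 0.84. Unc5c and Unc5d lost their calls as given above, and Unc5d also lost its call with TMM scaling (adjusted p = 0.0531), with edgeR (0.0513) and with limma-voom (0.0611). The direction stayed the same for these 4 genes in every alternative run.

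**Figure D5:**
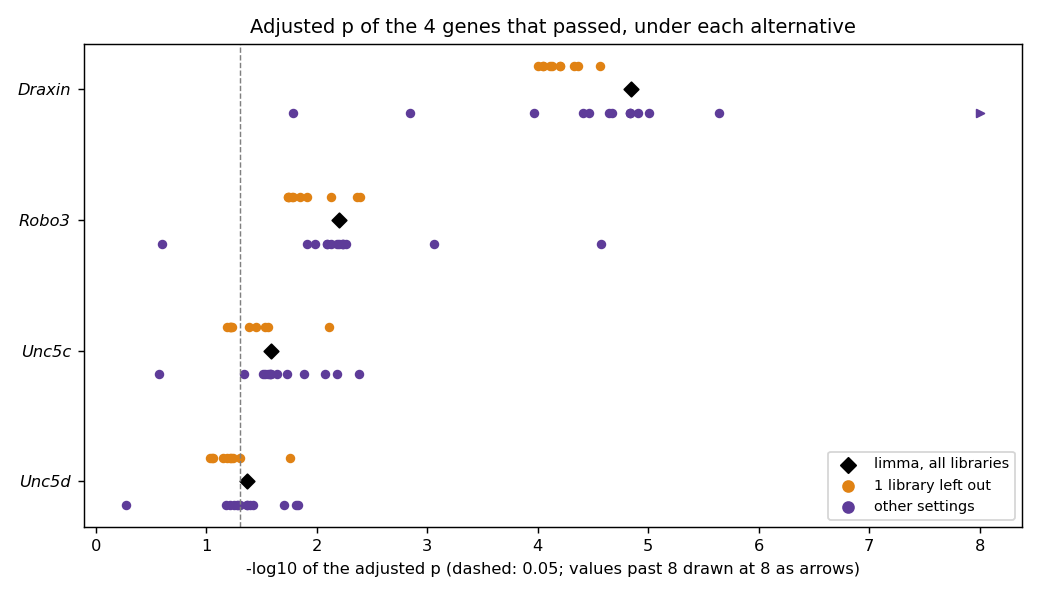
Adjusted p of Draxin, Robo3, Unc5c and Unc5d, as -log10 (horizontal axis), in limma on all libraries (diamond), with 1 library left out (orange) and under the other settings (purple), with 0.05 as a dashed line and values past the axis drawn as an arrow. All Draxin points lie right of the line and 1 Robo3 point lies left of it, while the Unc5c and Unc5d points lie on both sides.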

How the data were processed

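Dentate gyrus RNA was sequenced in 10 libraries, 5 per virus. Libraries were made from 100 ng RNA with a stranded poly(A) kit, per the labels' protocols. GRCm38 is the build named in the submitters' processing notes, with STAR 2.5.2a, featureCounts 1.5.1 of Subread, cutadapt 1.9.1, bcl2fastq 1.8.4, R 3.3.1 and DESeq2 1.12.3 as tools. No source used here gives the strand setting or annotation release of the counting. Deposited signal values are normalized counts, reads divided by a factor for each library, as the values show. In each library 100.0% of values above 0 were whole multiples of 1 read within 0.01 reads, so whole reads were recovered. Reads were counted without molecular identifiers, and the labels do not say that each library is a separate animal, so p-values measure the spread between these libraries, which may be technical. Replicates all differed by more than sampling noise (lowest chi-square per degree of freedom 11.58).

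Columns were assigned to groups only, since their numbers do not match the titles. GENCODE M21 on GRCm38 gave symbols for 48058 identifiers and exon lengths. Genes averaging 10 or more normalized counts were tested by limma 3.58.1 (trend, robust) in R 4.3.3 on log2(normalized count + 1), which shrinks the change of low genes, with Benjamini-Hochberg adjustment over 17007 genes and a threshold of 0.05. The count test of edgeR 4.0.16 on recovered reads called 3237 genes and limma 3234, while DESeq2 1.42.0 called 4062. Limma-voom, other pseudocounts (0.5 and 8), filters, scalings, weights, a covariate and left-out libraries were alternatives. The 3 ratios and shares were tested by two-sided exact permutation over 252 assignments. Calculations used Python 3.11.15 with numpy 2.4.6, pandas 2.3.3 and scipy 1.17.1. The tests were tried on made-up counts with known changes. All 10 members were named, as were the genes of each related list past the threshold or, of the others, at most the 3 of lowest p, and the 3 closest profiles of each of Draxin, Robo3, Unc5c and Unc5d among genes with a mean of at least 50. The members' transcripts consisted to 99.2 to 100.0% of 31-base words unique to the gene, and other genes' exons covered at most 0.82% of their exon bases. The members and lists were chosen with earlier results of these data known.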

Additional observations from a re-analysis of the deposited data

Results flagged for a closer look

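In 4 of 28 groups of 5 libraries 1 value stood farther from the rest than Dixon's 95% limit allows (0.71 of the group's range), where chance alone gives about 1 in 20. Draxin had 198 normalized counts in GFP 5, above the other GFP libraries and below every Sox11 library. In the same library Sox11 had 1634 normalized counts, the highest of the GFP group. Robo1 had 4328 in GFP 1, the lowest of its group. Sox11 had 20434 in Sox11 3, the library that had the most Draxin, Ntn1, Unc5a, Unc5c and Robo1 of the Sox11 group. How these values relate within the groups was not tested.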

How the results depend on the processing

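No paired analysis was possible because the numbers of the table's columns do not match the replicate numbers in the titles, so columns carry a group and no pair. Over all genes the number called was 3234, between 2487 and 3285 when 1 library was left out, 969 in libraries 1 to 3 alone, 4227 with sample weights, 4062 in DESeq2, 4048 with the division of library numbers as covariate and 2598 to 3261 in the others. Of the 10 members 4 were called, 2 to 4 when 1 library was left out, and 1 in libraries 1 to 3. Unc5c had -0.23 there and -0.37 to -0.26 with 1 library left out. Unc5d had -0.28 without a filter (adjusted p = 0.0566) and without trend and robust options (0.067), -0.27 with TMM and edgeR, -0.26 with limma-voom, -0.06 in libraries 1 to 3 and -0.33 to -0.20 with 1 library left out. Robo3 had 0.57 in libraries 1 to 3. Values near 0 changed sign in members without a call. Ntn1 had 0.09 with sample weights and -0.17 to 0.06 with 1 library left out, and Dcc -0.07 with weights and -0.0041 to 0.13. Unc5a had -0.003 in edgeR, -0.0093 in DESeq2, -0.07 with weights, -0.21 in libraries 4 to 7 and -0.09 to 0.08 with 1 library left out. Unc5b had -0.04 with the division as covariate, -0.14 in libraries 4 to 7 and -0.09 to 0.11. Robo1 had -0.02 in libraries 4 to 7. The fits on libraries 1 to 3 or 4 to 7 have fewer samples, and for the other changes the cause was not tested. The lowest members rest on over 100 reads a library, and Draxin had the fewest, 124.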
